A study of Mus musculus with 6 samples.

Results

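Acta1, Ckm and Tnnt3 are 3 short genes that skeletal muscle uses at very high levels, and the level of ubiquitylated histone H2B (H2Bub) over each was read from chromatin immunoprecipitation and sequencing libraries of C2C12 cells. The members were taken as fixed intervals of the mouse genome build mm9, set by gene position and not by a cut on signal. They were chosen with earlier results of these data known. The intervals were Acta1 at chr8:126415500-126419000, Ckm at chr7:19996000-20007000 and Tnnt3 at chr7:149684500-149702000. They are set against 245680 consecutive 10 kb windows of chromosomes 1 to 19 and X with at least 15 reads in all, of which 203558 hold no H2Bub peak. C2C12 is an immortal line of mouse myoblasts whose cells fuse to multinucleate myotubes once growth medium is withdrawn. There were 3 myotube libraries (MT), from cells grown to confluence and kept for 96 h in 2% horse serum, and 3 libraries of growing myoblasts (MB), collected in 10% fetal bovine serum at about 40% confluency. Both groups are 1 cell line (the cell type label reads C2C12, the source names C1C12), carry no stated genetic change or agent beyond the media, and went through the same antibody clone and micrococcal nuclease digestion to mostly single nucleosomes. Each library has its own antibody lot number in the labels, so lot and library cannot be told apart. Separate cultures are not stated in the labels, so every p-value rests on a spread between libraries that may be technical. A myotube dish can also hold cells that have not fused, and marker expression was not measured by this assay.

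H2Bub is laid down by the ubiquitin ligase pair Rnf20 and Rnf40 while RNA polymerase II elongates, and it is removed by deubiquitylases, so that it usually marks the bodies of transcribed genes. Acta1 encodes skeletal muscle alpha-actin, the main protein of the thin filament. Tnnt3 encodes fast skeletal troponin T, which ties the calcium-sensing troponin complex to tropomyosin on that filament. Ckm encodes muscle creatine kinase, which regenerates ATP from phosphocreatine beside the contracting filaments. All 3 are textbook genes of the late differentiation programme, switched on by the myogenic regulatory factors and their partners.

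The promoters of Acta1 and Ckm are shown with the regulatory sites that were searched for in them. RefSeq promoter sequences (build GRCm38.p6, 250 bases before to 50 after the annotated start, gene strand) matched 2 of the 3 members, and Tnnt3 is named only. Capitals mark E-boxes (CANNTG, the site of basic helix-loop-helix factors such as MyoD), CArG boxes (the serum response factor site) and TATA boxes (TATANAA), searched on both strands. The sequence of Acta1 lies at chr8:123894726-123895025 on the minus strand and that of Ckm at chr7:19410844-19411143 on the plus strand of that build.
Acta1: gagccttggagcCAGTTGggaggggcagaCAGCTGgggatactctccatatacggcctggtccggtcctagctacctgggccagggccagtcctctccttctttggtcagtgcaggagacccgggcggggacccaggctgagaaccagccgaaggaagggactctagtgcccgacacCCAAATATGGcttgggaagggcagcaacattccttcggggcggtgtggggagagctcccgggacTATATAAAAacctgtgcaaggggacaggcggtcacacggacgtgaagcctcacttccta
Ckm: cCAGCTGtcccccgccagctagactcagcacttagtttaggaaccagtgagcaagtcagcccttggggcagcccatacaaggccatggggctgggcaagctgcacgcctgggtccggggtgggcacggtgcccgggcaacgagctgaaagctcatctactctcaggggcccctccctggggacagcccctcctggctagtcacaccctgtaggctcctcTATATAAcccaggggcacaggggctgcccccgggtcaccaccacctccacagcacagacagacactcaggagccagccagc
The Acta1 window held 2 E-boxes, 1 CArG box and 2 overlapping TATA matches, and the Ckm window held 1 E-box, 1 TATA match and 0 CArG boxes. Among all 32851 promoter windows of the table, 72.3% held an E-box, 1.63% a CArG box and 11.3% a TATA match. A match is a description of the letters, and the GRCm38 positions were not carried over to mm9, so no H2Bub value is given for these windows by themselves.

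No H2Bub peak lay in any of the 3 gene intervals, in either differentiation state. Of 25743 MT peaks and 191324 MB peaks on chromosomes 1 to 19 and X, 0 and 0 overlapped Acta1, Ckm or Tnnt3 by at least 1 bp. The nearest MT peak ended 71.7 kb to the left of Acta1, began 242 kb to the right of Ckm, and ended 7.64 kb to the left of Tnnt3. The nearest MB peak was 19.4 kb to the right of Acta1, 24.55 kb to the left of Ckm and 16.0 kb to the left of Tnnt3. On the left side of Ckm the nearest MT peak was 2809 kb away. The peak lists are 1 per group, with no score and no stated threshold, so these counts have no replicate error.

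Read density over the 3 genes lay inside the range of sequence without peaks, in myotubes and in myoblasts, and that of Ckm in the lower part of the range. Density is given as reads per kb of interval per 1000000 reads on chromosomes 1 to 19 and X (RPKM). The 203558 peak-free windows had 0.373 ± 0.0118 RPKM in myotubes and 0.221 ± 0.0206 RPKM in myoblasts (SD, n = 3 each), a ratio of 1.69. All 6 libraries had between 8759266 and 15891204 reads in this count, and the share outside all peaks was 90.0% to 92.8% in myotubes and 61.0% to 68.2% in myoblasts. That shift moves with every value below that is scaled by total reads, and it sets the level against which the 3 genes were read.

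The thin filament genes come first. Over Tnnt3 the myotube libraries had 0.437, 0.383 and 0.474 RPKM, from 67, 62 and 120 reads, against 0.117, 0.169 and 0.270 RPKM in the myoblast libraries, from 19, 31 and 75 reads. Every myotube library was above every myoblast library. The same held for 86.3% of the 111533 peak-free stretches of the same length. The means were 0.431 ± 0.0456 RPKM in myotubes and 0.185 ± 0.0777 RPKM in myoblasts (SD, n = 3 each), and the exact permutation test (two-sided) gave p = 0.1, below which 3 libraries against 3 cannot go. Pooled over libraries, counting error alone gave 0.385 to 0.496 RPKM in myotubes and 0.167 to 0.239 RPKM in myoblasts (exact Poisson intervals, 95%, here and below).

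Over Acta1 the myotube libraries had 0.391, 0.247 and 0.750 RPKM, from 12, 8 and 38 reads, against 0.0615, 0.272 and 0.288 RPKM in the myoblast libraries, from 2, 10 and 16 reads. The groups overlapped, whereas in 52.1% of the 574256 peak-free stretches of the Acta1 length they did not; MT replicate 2 was below 2 of the 3 myoblast libraries and MT replicate 3 stood well above the rest. The means were 0.463 ± 0.259 RPKM in myotubes and 0.207 ± 0.126 RPKM in myoblasts (SD, n = 3 each; exact permutation test, two-sided, p = 0.3). The pooled counts of 58 and 28 reads gave 0.387 to 0.660 RPKM in myotubes and 0.149 to 0.324 RPKM in myoblasts. At 3.5 kb, Acta1 is the interval with the fewest reads.

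Ckm, the energy gene, was the lowest of the 3. The myotube libraries had 0.228, 0.285 and 0.270 RPKM, from 22, 29 and 43 reads, against 0.117, 0.0520 and 0.217 RPKM in the myoblast libraries, from 12, 6 and 38 reads. Every myotube library was above every myoblast library, narrowly for MT replicate 1 and MB replicate 3, as in 78.5% of the 184069 peak-free stretches of its length. The means were 0.261 ± 0.0295 RPKM in myotubes and 0.129 ± 0.0833 RPKM in myoblasts (SD, n = 3 each; exact permutation test, two-sided, p = 0.1). Pooled counts gave 0.213 to 0.322 RPKM in myotubes and 0.108 to 0.185 RPKM in myoblasts.

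**Figure D1:**
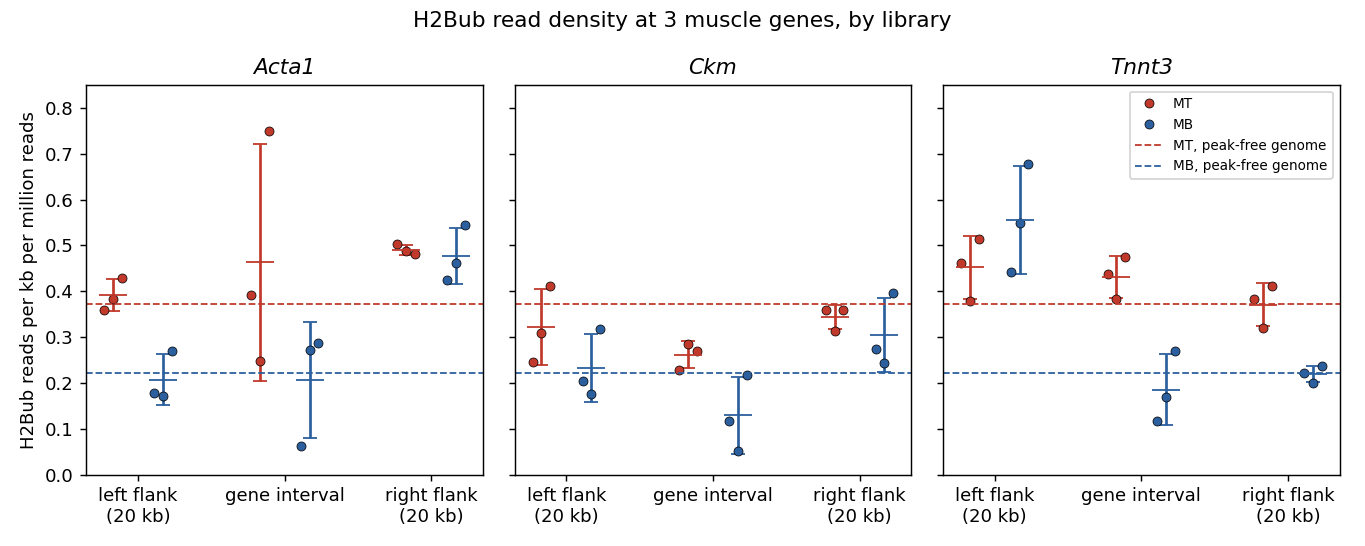
H2Bub density in RPKM over each gene interval and its 20 kb flanks, with 1 point per library, horizontal ticks at the mean and bars of 1 SD (n = 3 per group); dashed lines are the mean of peak-free windows, 0.373 in MT and 0.221 in MB. All MT points over Tnnt3 lie above the MT line, and all points over Ckm lie below the line of their group. The MB points over Tnnt3 and the points of each group over Acta1 lie on both sides of their line. MT replicate 3 at Acta1 (0.750) is the highest point.

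By mean level the order was Acta1, Tnnt3, Ckm in both states. In myotubes, Tnnt3 (0.383 to 0.474 RPKM) and Ckm (0.228 to 0.285 RPKM) did not overlap, whereas Acta1 overlapped both. In myoblasts all 3 ranges overlapped. Among peak-free stretches of its own length, Tnnt3 was above 66.7% of them in myotubes and 40.3% in myoblasts, and Acta1 above 64.6% in myotubes and 41.4% in myoblasts. Ckm was above 21.9% in myotubes and 17.9% in myoblasts. Tnnt3 and Acta1 were thus nearer the middle of peak-free sequence than Ckm in both states.

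In bins of 2.5 kb, the mean was higher in myotubes than in myoblasts in 7 of 7 bins whose centre lay inside Tnnt3, in 4 of 4 inside Ckm and in the 1 bin inside Acta1. In the flanks the counts were 3 of 8 (left) and 7 of 8 (right) for Tnnt3. For Ckm they were 7 of 8 (left) and 7 of 9 (right), and for Acta1 8 of 8 (left) and 4 of 9 (right). Over peak-free windows of the genome the ratio of myotube to myoblast means was 1.69. The share of peak-free 2.5 kb bins with the higher mean in myotubes was not counted, so these bin counts have no background. The highest bin inside Tnnt3 reached a mean of 0.587 RPKM in myotubes and 0.309 RPKM in myoblasts. Inside Ckm the corresponding values were 0.383 RPKM in myotubes and 0.144 RPKM in myoblasts. When split at its midpoint, the left part of Ckm, which holds the start of the gene on the plus strand, had 0.327 ± 0.0446 RPKM in myotubes and 0.132 ± 0.0771 RPKM in myoblasts, and the right part 0.195 ± 0.0526 RPKM in myotubes and 0.126 ± 0.0918 RPKM in myoblasts (SD, n = 3 each). The left part of Tnnt3 had 0.444 ± 0.0738 RPKM in myotubes and 0.201 ± 0.0997 RPKM in myoblasts, and the right part 0.419 ± 0.0347 RPKM in myotubes and 0.169 ± 0.0949 RPKM in myoblasts, so the parts differed by less than their SDs.

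**Figure D2:**
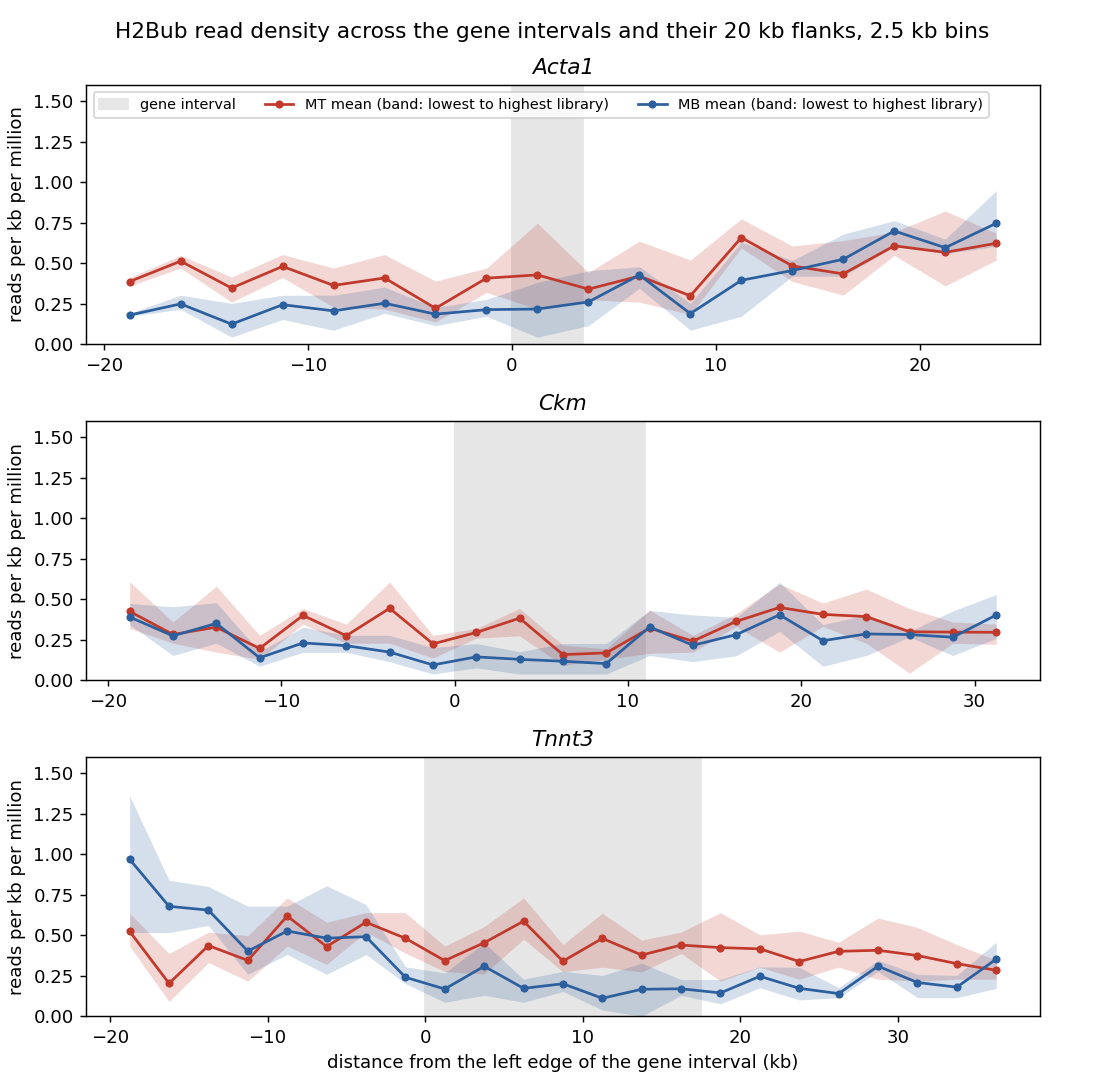
H2Bub density in RPKM in 2.5 kb bins against the distance from the left edge of each gene interval (grey); lines are means of 3 libraries and bands run from the lowest to the highest library. Inside the grey spans the MT and MB means stay below 0.6, and the highest MB bin, 0.969, lies at the far left of the Tnnt3 flank.

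With scaling by total reads, all 3 genes were higher in myotubes in a fit across all windows (limma voom, Benjamini-Hochberg adjustment over 245692 rows, threshold 0.05). In the same fit 68.9% of all windows and 79.7% of peak-free windows were higher, so 3 of 3 is near the background. Of peak-free stretches as long as the gene, 89.3% were higher for Tnnt3, 43.9% for Acta1 and 81.7% for Ckm. Tnnt3 had a log2 fold change of 1.19 (SE 0.23, limma adjusted p = 5.398e-05), Acta1 of 1.20 (SE 0.43, limma adjusted p = 0.0125) and Ckm of 1.10 (SE 0.32, limma adjusted p = 0.00273), against a median of 0.84 over peak-free windows. On another scale, the log2 ratio of mean densities with 0.1 RPKM added to each, Tnnt3 had 0.90, above 96.1% of peak-free stretches of its own length. Acta1 had 0.87, above 81.6% of stretches of its length, and Ckm 0.66, above 60.7%. Against 10 kb windows, which differ in length from all 3 intervals, 89.5% of peak-free ones had a lower fitted log2 fold change than Tnnt3, 90.1% than Acta1 and 82.7% than Ckm. The Acta1 call was lost without MT replicate 3 (log2 fold change 0.68, limma adjusted p = 0.19) and without MB replicate 1 (0.68, limma adjusted p = 0.103), and the Ckm call without MB replicate 2 (0.60, limma adjusted p = 0.0609). Without MB replicate 3 the Ckm value was 1.71.

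With scaling by the trimmed mean of M-values (TMM), taken over the 10 kb windows, no gene of the 3 passed the threshold. The median of peak-free windows was 0.14 in that fit, and 2.15% of them were then higher in myotubes and 4.94% lower. The log2 fold changes were 0.52 for Tnnt3 (SE 0.24, limma adjusted p = 0.141), 0.51 for Acta1 (SE 0.43, limma adjusted p = 0.486) and 0.36 for Ckm (SE 0.30, limma adjusted p = 0.483). At an unadjusted p under 0.05, 1 of the 3 passed in that limma fit, namely Tnnt3. The share of peak-free windows passing that unadjusted level was not counted, so the count has no background. A fit with the replicate number as a block beside TMM was chosen after the data were seen. Deviations of same-numbered libraries correlated at 0.002, -0.181 and 0.151 over windows, so the block does not stand for a pairing. Tnnt3 passed in that block fit (0.66, limma adjusted p = 0.0358). Of the 203558 peak-free windows, 5920 were higher and 10825 lower in the block fit. With scaling on reads outside all peaks, Tnnt3 alone passed (0.71, SE 0.23, limma adjusted p = 0.0161), as did 16.2% of peak-free windows, whose median was 0.36. Acta1 had 0.72 (limma adjusted p = 0.179) and Ckm 0.58 (limma adjusted p = 0.127) in that fit. None of the 3 was lower in myotubes under any of these scalings.

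**Figure D3:**
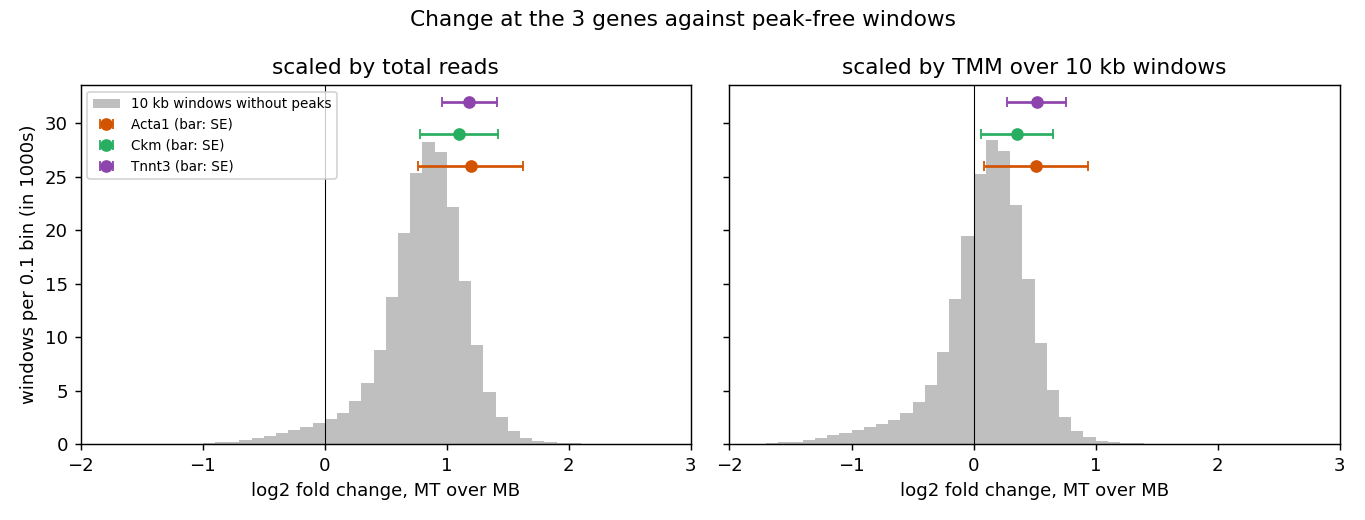
Histogram of log2 fold changes, MT over MB, of 10 kb windows without peaks (grey, number of windows per bin) with the 3 gene intervals as points with bars of 1 SE, for scaling by total reads (left) and by TMM over 10 kb windows (right); the height of a point carries no value. The points lie at 1.10 to 1.20 on the left and 0.36 to 0.52 on the right, in the upper part of each histogram.

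A ratio of each gene to its own 20 kb flanks needs no scaling between libraries. The share of peak-free stretches in which such a ratio separated the groups was not counted, so a separation has no background here. For Tnnt3 the ratio was 1.03, 1.10 and 1.02 in the myotube libraries, against 0.353, 0.451 and 0.591 in the myoblast libraries. Tnnt3 was thus level with its surroundings in every myotube library and below them in every myoblast library. The means were 1.05 ± 0.0405 in myotubes and 0.465 ± 0.120 in myoblasts (SD, n = 3 each), a difference of 0.587 (exact permutation test, two-sided, p = 0.1). The size depended on what it was set against: with peak-free windows within 250 kb in place of the flanks, the ratio was 1.19 ± 0.0902 in myotubes and 0.920 ± 0.207 in myoblasts, a difference of 0.267. With the right flank alone it was 0.327, and MB replicate 3 (1.14) then equalled MT replicate 1. The myoblast ratios were 0.530, 0.844 and 1.14 with the right flank alone, and 0.686, 0.994 and 1.08 with those peak-free windows. In myoblasts the left flank, which held an MB peak and an MT peak, had 0.555 RPKM and the right flank 0.219 RPKM.

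Ckm was below its flanks in every library. The ratio was 0.755, 0.917 and 0.701 in the myotube libraries, against 0.490, 0.248 and 0.609 in the myoblast libraries. The groups did not overlap, again without a background share. With the left flank alone they did, since MT replicate 3 (0.657) was below MB replicate 3 (0.684). The means with both flanks were 0.791 ± 0.112 in myotubes and 0.449 ± 0.184 in myoblasts (SD, n = 3 each), a difference of 0.342 (exact permutation test, two-sided, p = 0.1). Acta1 had ratios of 0.908, 0.568 and 1.65 in the myotube libraries, against 0.204, 0.859 and 0.706 in the myoblast libraries. These overlapped, with means of 1.04 ± 0.554 in myotubes and 0.590 ± 0.343 in myoblasts (SD, n = 3 each; difference 0.452, exact permutation test, two-sided, p = 0.4). Without MT replicate 3 the difference was 0.148. With the left flank alone it was 0.162 (exact permutation test, two-sided, p = 0.7). With the right flank alone, which held an MB peak, it was 0.529 (exact permutation test, two-sided, p = 0.3).

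No difference between the genes in their change was detected. The exact test of 3 libraries against 3 cannot give a p under 0.1, so it could not have passed a threshold of 0.05. The log2 ratio of Acta1 to Tnnt3, the 2 thin filament genes, was -0.04 ± 0.66 in myotubes and -0.05 ± 0.82 in myoblasts (SD, n = 3 each; exact permutation test, two-sided, p = 1). The log2 ratio of Ckm to Tnnt3 was -0.72 ± 0.27 in myotubes and -0.67 ± 0.91 in myoblasts (exact permutation test, p = 0.9). That of Acta1 to Ckm was 0.68 ± 0.84 in myotubes and 0.62 ± 1.67 in myoblasts (exact permutation test, p = 1). After adjustment over the 3 pairs each p was 1, and SDs of 0.27 to 1.67 leave room for differences of that size.

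The surroundings differed from gene to gene. By the order of genes in the RefSeq table (GRCm38.p6, names only), Tnnt3 is overlapped by Prr33 and lies between Lsp1 and Mrpl23, a mitochondrial ribosomal protein gene. Ckm is overlapped by the non-coding A930016O22Rik and lies between Klc3, a kinesin light chain gene, and Mark4, a microtubule affinity-regulating kinase gene, among protein-coding genes. Acta1 lies between Ccsap and Nup133, a nuclear pore gene, with the non-coding Gm29773 next to it. Reads of this assay carry no transcript strand, so H2Bub of a gene and of one that overlaps it cannot be told apart.

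Beside Tnnt3, the right flank passed the threshold with total reads, higher in myotubes, and the left did not. Of peak-free 10 kb windows 79.7% were higher in the same fit, with a median log2 fold change of 0.84, above that of the right flank. These windows are shorter than the 20 kb flank, and no share was counted at its length. The share called was 43.9% for peak-free stretches of the Acta1 length and 89.3% for those of the Tnnt3 length. The left flank had 0.452 ± 0.0687 RPKM in myotubes and 0.555 ± 0.118 RPKM in myoblasts (SD, n = 3 each, as for all flanks; log2 fold change -0.27, limma adjusted p = 0.23, SE 0.21), and -0.98 with TMM scaling (limma adjusted p = 0.00215). The right flank had 0.371 ± 0.0471 RPKM in myotubes and 0.219 ± 0.0180 RPKM in myoblasts (log2 fold change 0.74, limma adjusted p = 0.00128, SE 0.20), and 0.03 with TMM scaling (limma adjusted p = 0.944). The left flank held both peaks of this locus, called on these same libraries, so their direction follows in part from that choice.

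Those 2 peaks went opposite ways on few reads. The MB peak at chr7:149668241-149668477 had 0, 0 and 3 reads in the myotube libraries, against 6, 6 and 5 reads in the myoblast libraries (log2 fold change -2.46, limma adjusted p = 0.00142, SE 0.66). The MT peak at chr7:149676463-149676857 had 3, 4 and 7 reads in the myotube libraries, against 1, 0 and 3 reads in the myoblast libraries (log2 fold change 1.96, limma adjusted p = 0.0075, SE 0.66). The call of the MT peak was lost with TMM scaling (1.25, limma adjusted p = 0.201, and 1.11 with the replicate block added, limma adjusted p = 0.234), with reads outside all peaks (1.46, limma adjusted p = 0.0762), with reads moved to the nucleosome centre (1.34, limma adjusted p = 0.0604) and without MB replicate 2 (1.29, limma adjusted p = 0.0717). It had too few reads to be tested without MT replicate 2, without MT replicate 3, when thinned to the smallest library or with a stricter floor (10 reads at the median library size in 3 libraries). The MB peak was called with TMM scaling (-3.13, limma adjusted p = 0.0001616), and had too few reads to be tested without MB replicate 1, without MB replicate 2 or with that floor.

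Beside Acta1, the left flank had 0.391 ± 0.0349 RPKM in myotubes and 0.207 ± 0.0555 RPKM in myoblasts (log2 fold change 0.90, limma adjusted p = 0.000347, SE 0.21) and 0.23 with TMM scaling (limma adjusted p = 0.551). The median over peak-free 10 kb windows was 0.84 with total reads and 0.14 with TMM scaling. The right flank had 0.490 ± 0.0113 RPKM in myotubes and 0.477 ± 0.0609 RPKM in myoblasts (log2 fold change 0.07, limma adjusted p = 0.758, SE 0.20), and -0.64 with TMM scaling (limma adjusted p = 0.0518). At its far end, the MB peak at chr8:126438421-126438748 had 1, 3 and 3 reads in the myotube libraries, against 7, 2 and 6 reads in the myoblast libraries (log2 fold change -0.74, SE 0.60, limma adjusted p = 0.241). Beside Ckm, neither flank passed the threshold: the left had 0.322 ± 0.0837 RPKM in myotubes and 0.233 ± 0.0749 RPKM in myoblasts (limma adjusted p = 0.0537), and the right 0.344 ± 0.0264 RPKM in myotubes and 0.305 ± 0.0810 RPKM in myoblasts (limma adjusted p = 0.314).

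Over a wider stretch, Acta1 and Ckm lay in gaps between myoblast H2Bub, and Tnnt3 in a stretch nearly without it. Of the 48 windows of 10 kb within 250 kb of each gene and not touching it, 19 held an MB peak near Acta1, 18 near Ckm and 1 near Tnnt3. The 18 windows near Ckm had 0.378 ± 0.0747 RPKM in myotubes and 1.19 ± 0.252 RPKM in myoblasts (SD, n = 3 each), and 15 of them were lower and 0 higher in myotubes with total reads. The 19 near Acta1 had 0.543 ± 0.0471 RPKM in myotubes and 1.13 ± 0.138 RPKM in myoblasts, with 14 lower and 0 higher. Of all 33628 windows with an MB peak, 85.5% were lower, so both counts are near that background. These windows were picked by MB peaks, so that direction follows in part from the choice.

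In the same neighbourhoods the peak-free windows were higher in myotubes in 22 of 27 cases near Acta1, 11 of 30 near Ckm and 42 of 46 near Tnnt3 with total reads. Lower ones numbered 1, 3 and 0. Over the genome 79.7% of peak-free windows were higher with total reads, and with TMM scaling 2.15% were higher and 4.94% lower. Of the windows in these neighbourhoods, with TMM scaling 1 was higher and 2 lower near Acta1, 0 higher and 6 lower near Ckm, and 1 higher and 2 lower near Tnnt3. Their densities were 0.440 ± 0.0311 RPKM in myotubes and 0.258 ± 0.0563 RPKM in myoblasts near Acta1, 0.322 ± 0.0353 RPKM in myotubes and 0.267 ± 0.0733 RPKM in myoblasts near Ckm, and 0.363 ± 0.0220 RPKM in myotubes and 0.197 ± 0.0459 RPKM in myoblasts near Tnnt3 (SD, n = 3 each). Windows with an MT peak numbered 8 near Acta1, 1 near Ckm and 1 near Tnnt3.

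**Figure D4:**
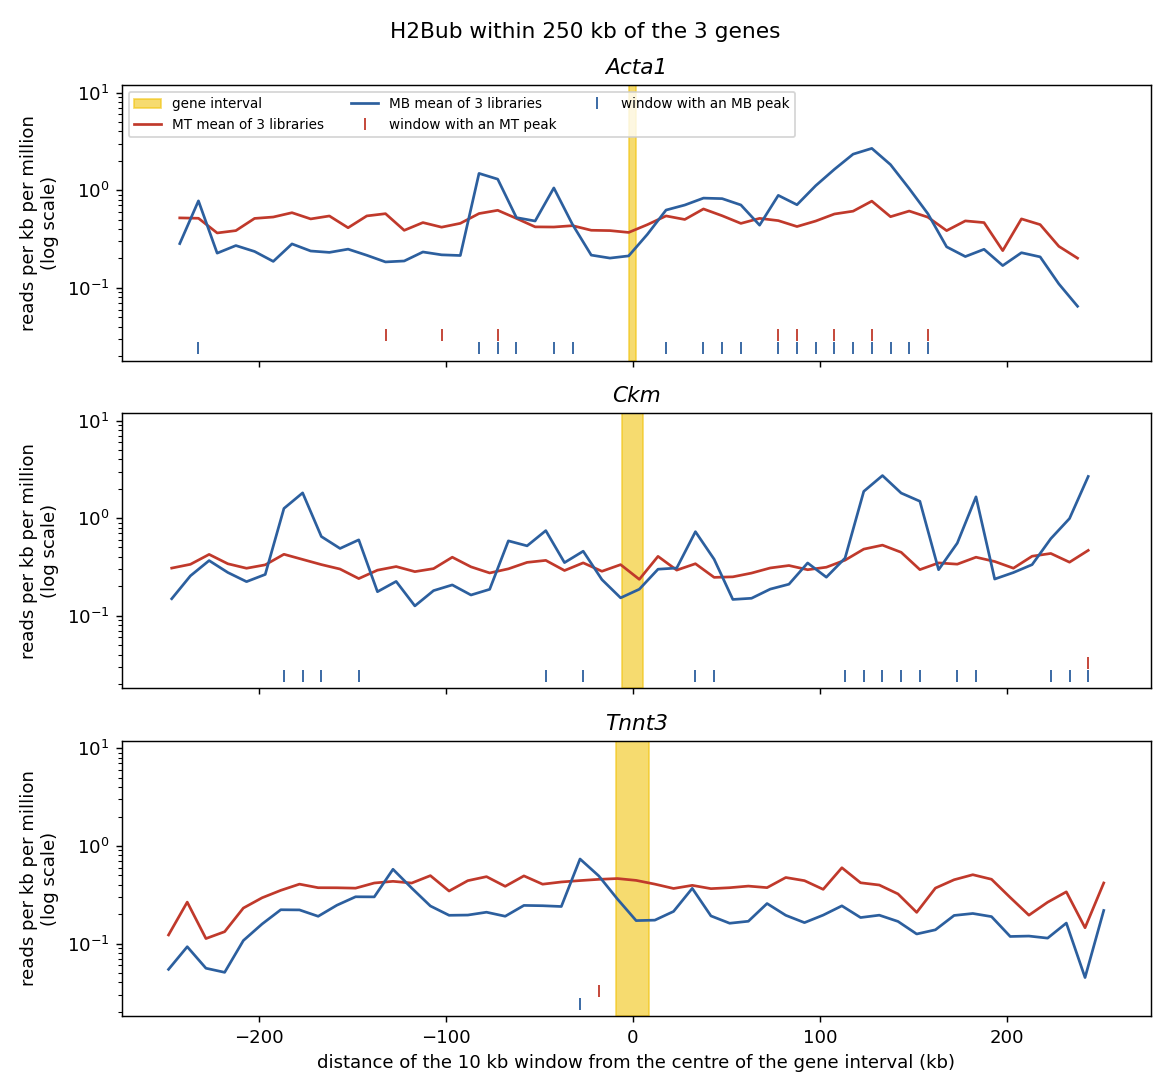
H2Bub density in RPKM (log axis) in 10 kb windows against distance from the centre of each gene interval (yellow), as means of 3 libraries per group, with ticks under windows that hold an MT peak or an MB peak. The MB line rises over its peaks near Acta1 and Ckm and dips at both genes, whereas the MT line is flatter. Near Tnnt3, 1 window holds an MB peak.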

How the data were processed

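H2Bub was profiled in 3 MT and 3 MB libraries. The authors deposited 1 file per library with 1 line per mapped read (chromosome, position, strand), and 1 peak list per group without scores, on mm9 per the submitters' processing notes. Not given in the sources used here: the aligner, read filters and peak caller. No line was repeated within a library (0 of each), so dense regions can be compressed.

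Reads were counted here in each interval, its 20 kb flanks and all 10 kb windows. Scaling used total reads on chromosomes 1 to 19 and X. Rows with at least 15 reads over the 6 libraries were tested in R 4.3.3 with voom of limma 3.58.1 (two-sided), checked on simulated counts. A stricter floor, 10 reads at the median library size in 3 libraries, can be passed through 1 group and would have left out Acta1, so the floor on the sum was chosen after the counts were seen. Single values were compared with exact permutation tests in SciPy 1.17.1. Counting and plots used NumPy 2.4.6, pandas 2.3.3 and matplotlib 3.10.9 in Python 3.11.15. Alternatives covered scaling, floor, replicate block, each library left out, read position, interval edges, flanks, limma-trend and thinning.

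The members and the values named were chosen with earlier results of these data known; those named were the 3 genes and each peak in them, and the 3 flank peaks were added after their values were seen. No mm9 annotation was at hand, so the interval positions were not checked and other muscle genes were not analysed here. The RefSeq gene lengths on GRCm38.p6 (3018 bp for Acta1, 10490 bp for Ckm, 17443 bp for Tnnt3) are 483, 511 and 58 bp shorter than the intervals.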

Additional observations from a re-analysis of the deposited data

How the results depend on the processing

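Between 2 and 120 reads per library lay in an interval. TMM scaling gave log2 fold changes of 0.51 for Acta1, 0.36 for Ckm and 0.52 for Tnnt3, all under the threshold, and reads outside all peaks gave 0.72 for Acta1 and 0.58 for Ckm, also under it. The median of peak-free windows was 0.14 with TMM and 0.36 with reads outside all peaks. With 1 library left out the ranges were 0.68 to 1.61 for Acta1, 0.60 to 1.71 for Ckm and 0.95 to 1.56 for Tnnt3. The replicate block gave 1.15, 0.91 and 1.27, with all 3 calls kept. TMM with the replicate block, chosen after the data were seen, gave 0.49 for Acta1 (adjusted p = 0.341), 0.26 for Ckm (adjusted p = 0.582) and 0.66 for Tnnt3 (limma adjusted p = 0.0358). Deviations of same-numbered libraries correlated at 0.002, -0.181 and 0.151 over windows, so a shared number was not read as a pair. No floor, moved read positions, shortened intervals, limma-trend and thinning kept the 3 calls; the stricter floor, also chosen later, kept 2 and did not test Acta1.

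The differences in the ratio to the flanks stayed positive in each of the 14 alternatives per gene, at 0.148 to 0.690 for Acta1, 0.241 to 0.516 for Ckm and 0.267 to 0.650 for Tnnt3; with 1 library left out they were 0.148 to 0.690, 0.241 to 0.422 and 0.531 to 0.650. With same-numbered libraries compared as a replicate block, the exact p was 0.5, 0.25 and 0.25. The log2 ratios between genes changed sign: with shortened intervals Acta1 to Ckm was -0.13 and Acta1 to Tnnt3 -0.14, and with 1 library left out the ranges were -0.71 to 0.95 for Acta1 to Ckm, -0.43 to 0.37 for Acta1 to Tnnt3 and -0.57 to 0.28 for Ckm to Tnnt3; the cause was not tested. TMM scaling turned the flank values at the right of Acta1 (-0.64), the left of Ckm (-0.24) and the right of Ckm (-0.47), and the right of Acta1 ranged from -0.0054 to 0.15 with 1 library left out. Each peak count in the genes was 0 under other overlap rules, shortened intervals and the upper 50% of peaks by width. No peak region lay in a gene, so the alternatives for such regions gave no value.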
